A study of Mus musculus with 4 samples.

Results

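Expression of 8 genes of the floor plate and of the Hedgehog pathway was examined in cervical motor neurons (MNs) made from mouse embryonic stem cells (mESCs), with and without *Patz1*. The genes were *Shh*, *Ptch1*, *Hhip*, *Smo*, *Gli1*, *Gli2*, *Gli3* and *Foxa2*. They were taken by symbol from the 23420 gene symbols of the count files, and were chosen with earlier results of these data known. All 8 were found and tested among 14269 genes with sufficient counts. Both groups came from E14, a mouse embryonic stem cell line, and each group had 2 libraries. The WT group carried no engineered allele by its label, and the *Patz1* KO group was labelled *Patz1* -/-, a genotype that the study made with CRISPR in E14TG2a cells. In both groups, cells were grown as embryoid bodies and given 1 µM all-trans retinoic acid and 0.5 µM smoothened agonist (SAG) from day 2. SAG binds and activates Smo directly, so both groups received a Hedgehog stimulus that does not need a ligand. The study made several *Patz1* KO lines from single clones, and the line behind each library is not given in the sources used here. The sample titles name ESCs, whereas the source and cell type labels name MNs.

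In the developing spinal cord, SHH is secreted first by the notochord and then by the floor plate, the strip of cells at the ventral midline, and patterns the progenitors of the neural tube by its concentration. SHH binds PTCH1, which otherwise keeps SMO inactive. Active SMO gathers in the primary cilium and turns the GLI factors from repressors into activators, with GLI3 mainly a repressor, GLI2 the main activator, and GLI1 an activator that is itself a target of the pathway. PTCH1 and HHIP bind the ligand and are induced by it, which limits the signal. FOXA2 is a forkhead factor of the floor plate that acts on *Shh* and is also present in notochord and endoderm.

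Promoter sequences are shown for *Foxa2* and *Gli3*, which are 2 of the 3 genes that fell the most, and for *Smo*, which did not pass the test. The windows hold the 250 bases before a start site in RefSeq on GRCm38.p6, in lower case and in the direction of the gene. Capitals mark GGGAGGG or its reverse complement CCCTCCC, a G-rich core of the kind bound by MAZ-type zinc fingers. The first line is the upstream start of *Foxa2*, chr2:148046970-148047219 on the minus strand. The second line is a start inside the same gene, chr2:148045949-148046198 on the minus strand. *Gli3* is at chr13:15463473-15463722 on the plus strand and *Smo* at chr6:29735247-29735496 on the plus strand. The *Gli3* window lies inside the span of the gene given below, which comes from another annotation.
Foxa2, upstream start: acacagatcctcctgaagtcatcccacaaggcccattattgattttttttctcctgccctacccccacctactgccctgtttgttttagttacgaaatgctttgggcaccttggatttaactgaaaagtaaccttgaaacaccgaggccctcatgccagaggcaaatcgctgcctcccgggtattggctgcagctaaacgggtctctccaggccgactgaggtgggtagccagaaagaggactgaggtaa
Foxa2, inner start: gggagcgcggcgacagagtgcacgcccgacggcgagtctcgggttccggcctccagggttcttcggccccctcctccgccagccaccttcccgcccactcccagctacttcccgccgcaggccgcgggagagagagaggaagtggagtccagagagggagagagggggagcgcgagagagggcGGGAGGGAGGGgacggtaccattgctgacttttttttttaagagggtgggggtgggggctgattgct
Gli3: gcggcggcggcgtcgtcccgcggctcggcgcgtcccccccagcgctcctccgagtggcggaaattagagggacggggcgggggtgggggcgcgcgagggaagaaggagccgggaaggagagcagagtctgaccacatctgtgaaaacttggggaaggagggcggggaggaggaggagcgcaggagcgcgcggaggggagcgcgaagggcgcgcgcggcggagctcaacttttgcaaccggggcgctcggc
Smo: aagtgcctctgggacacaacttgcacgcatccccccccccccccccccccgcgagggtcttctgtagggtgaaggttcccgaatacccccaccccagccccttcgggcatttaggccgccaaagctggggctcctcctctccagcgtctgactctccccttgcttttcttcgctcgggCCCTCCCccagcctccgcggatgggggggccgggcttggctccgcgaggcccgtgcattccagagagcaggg

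The capitals in the inner *Foxa2* window cover 2 overlapping matches, and *Smo* had 1 match on the reverse strand. Another inner *Foxa2* window, chr2:148045465-148045714, also had 1 match. The upstream *Foxa2* window and the *Gli3* window had none, and neither had *Gli2*, *Hhip* or *Ptch1*. Like that of *Gli3*, the *Ptch1* window lies inside the span of its gene given below. Of 32851 windows of the same length, 19.7% held GGGAGGG on either strand. The Gli consensus GACCACCCA, present in 0.225% of all windows, and the Foxa core TGTTTAC, present in 3.17%, were searched on both strands and had no match in the windows of these genes. By symbol, 6 of the 8 genes were matched to a promoter, all but *Shh* and *Gli1*.

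Libraries were stranded and made from total RNA after removal of ribosomal RNA, and the deposited values are raw read counts per gene. Total counts were 14769104 and 15728158 in WT and 23881522 and 17402342 in *Patz1* KO. Values are given as counts, or as CPM, the counts scaled to library size after TMM normalization, and fold changes are log2 of *Patz1* KO over WT. A gene was called where its adjusted p was below 0.05 (quasi-likelihood test of edgeR, Benjamini-Hochberg over all genes tested). By this rule 47.9% of all genes tested were called, 24.1% higher and 23.8% lower in *Patz1* KO, and the median absolute log2 fold change was 0.34. A call by itself is therefore common in these data. No exact permutation test was used for single genes, since 2 libraries in each group allow no p below 0.333. The labels only number the replicates. The study's methods define biological replicates as separate differentiations, and by that definition the p-values measure the spread between differentiations. As the line behind each library is not given, it is not known whether they also cover the spread between clones.

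*Patz1*, the targeted gene (chr11:3288874-3309083, plus strand), had 1363 and 1499 counts in WT against 1154 and 714 in *Patz1* KO. This was 92.9 ± 1.96 CPM in WT and 45.1 ± 3.56 in *Patz1* KO (SD, n = 2), for a log2 fold change of -1.04 (SE 0.095, adjusted p = 1.10e-07). Reads of the transcript thus remained in both libraries labelled *Patz1* -/-, and they do not report on the protein. Its exons overlap those of *Gm11944* and *Gm12592*. The labelled cell type was checked with 10 motor neuron genes, all of them detected. Their summed level was 835 and 789 CPM in WT and 1177 and 1075 CPM in *Patz1* KO. Of the 10, 8 were called higher and 1 lower, beside 24.1% and 23.8% of all genes tested. *Mnx1* and *Lhx3*, homeodomain factors of MN identity, rose by 0.88 and 0.63. *Prph*, a neuronal intermediate filament, rose by 1.33, and *Chat*, the enzyme that makes acetylcholine, by 0.99. *Foxp1*, a factor of limb-level MN columns, fell by 1.05. *Isl1*, another MN homeodomain factor, had a log2 fold change of -0.19 (adjusted p = 0.0767).

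Of the 8 Hedgehog and floor plate genes, 6 were lower in *Patz1* KO MNs, 0 were higher and 2 were not called. Over all genes tested, 23.8% were lower and 24.1% higher. *Gli3*, *Shh* and *Foxa2* fell the most, followed by *Gli2*, *Hhip* and *Gli1*, while *Ptch1* and *Smo* did not pass the test. The median log2 fold change was -1.28, against -0.0014 over all genes tested. The 3 strongest falls were past 2 on the log2 scale, which 2.77% of all genes tested reached in the same direction with a call. In 7 of the 8 genes both *Patz1* KO libraries lay on one side of both WT libraries, 6 below and *Smo* above, and this holds for 74.2% of all genes tested. Only *Ptch1* had groups that overlapped. DESeq2's Wald test, the test used by the study, also called 6 of the 8.

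**Figure D1:**
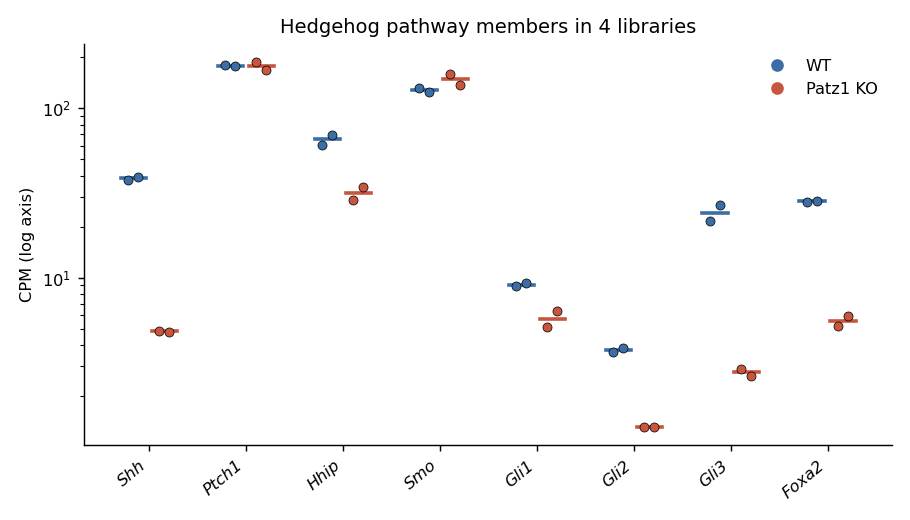
Level of each of the 8 genes in CPM (log axis), with 1 point per library and a bar at the mean of the 2 WT (blue) or 2 Patz1 KO (red) libraries. *Shh*, *Foxa2* and *Gli3* are the genes with the widest gap between groups, whereas the *Ptch1* points of the groups lie among each other.

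The ligand *Shh* (chr5:28456815-28467256, minus strand) had 558 and 628 counts in WT against 118 and 80 in *Patz1* KO. The level was 38.5 ± 1.44 CPM in WT and 4.82 ± 0.0693 CPM in *Patz1* KO (SD, n = 2). Both *Patz1* KO libraries were far below both WT libraries, and they lay close to each other. The level was 7.97-fold lower, a log2 fold change of -2.99 (SE 0.13, 95% CI -3.28 to -2.71, adjusted p = 1.59e-11). Among all genes tested, 1.35% had a larger absolute log2 fold change. With any 1 library left out, the value stayed between -3.03 and -2.95. Exons of *Shh* share bases with 2 genes on the other strand, *9530036O11Rik*, which had 2 to 8 counts per library, and *Gm26894*, which is not a row of the count files. The strand setting of the counting is not given in the sources used here, so reads of such a pair cannot be told apart. These are bulk cultures, in which fewer cells that express a gene and less RNA per cell cannot be told apart.

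The other ligands had few reads, and the genes of ligand release moved in both directions. *Ihh*, the Indian hedgehog ligand, had 31 and 28 counts in WT against 9 and 1 in *Patz1* KO and fell by 2.96 (SE 0.52, adjusted p = 0.000148). With so few reads its value depended on the library, at -4.83 without *Patz1* KO replicate 1 and -2.34 without *Patz1* KO replicate 2, and it was called in both fits. *Dhh*, the Desert hedgehog ligand, had 1 count in a single WT library and none elsewhere and was not tested. *Shh* thus had most of the ligand reads in both groups. Of the 7 tested genes of the list for other ligands and ligand release, 3 were higher and 4 lower. Of all genes tested, 47.9% were called. *Disp2*, a homolog of the transporter that releases lipid-modified Hedgehog, rose by 0.56. *Scube2*, a secreted factor that helps Hedgehog release, fell by 2.16 from 24 and 40 counts to 15 and 4. Its value was -3.08 without *Patz1* KO replicate 1 and -1.73 without *Patz1* KO replicate 2. *Hhat*, the acyltransferase that adds palmitate to Hedgehog ligands and was chosen after its values were seen, fell by 1.01.

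The floor plate factor *Foxa2* (chr2:148042877-148046969, minus strand) had 418 and 451 counts in WT against 125 and 100 in *Patz1* KO. Its level went from 28.2 ± 0.214 CPM to 5.56 ± 0.570 CPM (SD, n = 2). As for *Shh*, the groups were well apart, here by 5.11-fold, with a log2 fold change of -2.35 (SE 0.14, 95% CI -2.65 to -2.05, adjusted p = 5.33e-10). An absolute log2 fold change larger than this was found in 2.55% of all genes tested. Leaving out each library gave values from -2.44 to -2.24.

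Other genes of the floor plate split into strong falls and small or opposite changes. Of 14 tested, 8 were lower and 2 higher, beside 23.8% and 24.1% of all genes tested, with a median of -0.44. *Foxa1*, the paralog of *Foxa2*, went from 167 and 220 counts to 38 and 32 and fell by 2.87 (SE 0.22, adjusted p = 1.68e-08). *Ferd3l*, a basic helix-loop-helix gene of the ventral midline that was chosen after its values were seen, had 82 and 106 counts in WT against 6 and 4 in *Patz1* KO, with a log2 fold change of -4.60. In these transcription factor genes no *Patz1* KO library came near a WT library.

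The genes of the secreted proteins netrin-1, F-spondin and SLIT2 changed less. Other genes of the list were chosen after their values were seen. Of these, *Ctgf* and *Sulf1* fell further. *Slit1* (log2 fold change -0.16, adjusted p = 0.270), *Slit3* (0.041, adjusted p = 0.751) and *Alcam* (-0.14, adjusted p = 0.328) were not called. *Ctgf*, a matricellular protein, went from 235 and 279 counts to 112 and 106 and fell by 1.63 (adjusted p = 6.99e-07), and *Sulf1*, an extracellular sulfatase, fell by 0.79 (adjusted p = 3.03e-06). *Ntn1*, the axon guidance cue netrin-1, had 8945 and 9381 counts in WT against 10724 and 6943 in *Patz1* KO, which is 601 and 590 CPM against 442 and 414 CPM, and it fell by 0.48 (adjusted p = 0.000703). *Spon1*, the adhesion protein F-spondin, fell by 0.31 (adjusted p = 0.0249). The call was lost with DESeq2's Wald test, and without WT replicate 1, without WT replicate 2 or without *Patz1* KO replicate 2. *Slit2*, a repellent of commissural axons, rose by 0.30 (adjusted p = 0.0238), a call lost without WT replicate 1 or without WT replicate 2. The largest rise in the list was that of *Nkx2-9*, a homeodomain gene of the most ventral progenitors, from 50 and 85 counts to 506 and 364, a log2 fold change of 2.28 (SE 0.18, adjusted p = 1.96e-08).

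**Figure D2:**
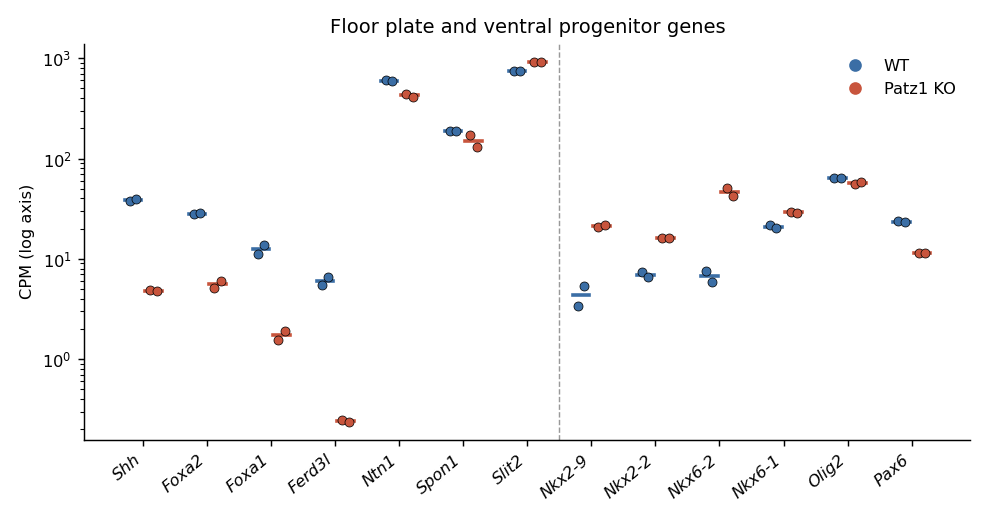
Level in CPM (log axis) of floor plate genes (left of the dashed line) and progenitor genes (right). There is 1 point per library and a bar at the group mean of 2 libraries. On the right, *Nkx2-9* is also in the floor plate list, and *Pax6* is in the list of Hedgehog-repressed factors. *Shh*, *Foxa2*, *Foxa1* and *Ferd3l* are lower in Patz1 KO, *Ntn1*, *Spon1* and *Slit2* differ little, and *Nkx2-9*, *Nkx2-2* and *Nkx6-2* are higher.

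The receptor *Ptch1* (chr13:63508328-63573598, minus strand), which is also a standard readout of Hedgehog signalling, had 2667 and 2837 counts in WT against 4531 and 2823 in *Patz1* KO. Its levels of 179 and 178 CPM in WT lay between the 187 and 168 CPM of the *Patz1* KO libraries. The log2 fold change was -0.0083 (SE 0.088, adjusted p = 0.947), and its 95% CI of -0.193 to 0.176 lies above the CI of each of the 6 called genes. Of all genes tested, 98.5% had a larger absolute log2 fold change. The sign of this small value changed in 4 of the 14 alternative settings, and no setting called it.

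*Hhip*, the decoy receptor that binds Hedgehog ligands at the membrane (chr8:79965851-80058006, minus strand), was lower in *Patz1* KO, whereas *Ptch1*, which the pathway also induces, was not called. It had 909 and 1110 counts in WT against 700 and 571 in *Patz1* KO, or 65.4 ± 6.21 CPM and 31.5 ± 3.65 CPM (SD, n = 2). It was 2.09-fold lower, a log2 fold change of -1.06 (SE 0.11, 95% CI -1.29 to -0.83, adjusted p = 3.96e-07), and the groups did not overlap. On a scale of CPM per kb of exon, the level of *Ptch1* was 1.88 and 1.64 times that of *Hhip* in WT and 4.14 and 3.16 times in *Patz1* KO. On the other strand, *Gm27820* shares 175 exon bases with *Hhip*.

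The signal transducer *Smo* (chr6:29735503-29761365, plus strand) had 1948 and 1974 counts in WT against 3871 and 2302 in *Patz1* KO. These were 131 and 124 CPM in WT and 160 and 137 CPM in *Patz1* KO, so that both *Patz1* KO libraries were above WT and 1 of them only slightly. The log2 fold change was 0.22 (SE 0.093, 95% CI 0.027 to 0.416), and with an adjusted p of 0.0568 the gene missed the threshold. It was called in 5 of the 14 alternative settings, with the lowest adjusted p, 0.000119, and a log2 fold change of 0.33 without *Patz1* KO replicate 2. Among the 8 genes, *Smo* was thus the one whose call changed in the most settings.

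The co-receptors were mostly lower. Of 8 tested genes for other receptors, co-receptors and membrane regulators, 5 were lower and 1 was higher. Over all genes tested, these shares were 23.8% and 24.1%. *Cdon* and *Boc* encode related ligand-binding co-receptors that act with PTCH1. *Cdon* went from 467 and 493 counts to 298 and 170 and fell by 1.46 (SE 0.13, adjusted p = 6.59e-08), and *Boc* went from 284 and 295 counts to 289 and 148 and fell by 0.84 (SE 0.15, adjusted p = 0.000197). *Gas1*, the third co-receptor of this kind, rose from 503 and 535 counts to 1739 and 1221, a log2 fold change of 1.10 (SE 0.095, adjusted p = 5.77e-08). The 3 co-receptors therefore did not move together, and exons of *Gas1* overlap those of *Gm48488* on the other strand. *Gpc3*, a glypican that competes with PTCH1 for ligand, fell by 1.93, and *Lrp2*, an endocytic receptor for SHH in the neural tube, fell by 0.57. *Gpr161*, a ciliary receptor that restrains the pathway, had a log2 fold change of -0.37 (adjusted p = 0.0997).

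All 3 *Gli* genes, the transcriptional effectors, were lower in *Patz1* KO MNs, and *Gli3* had the largest fall. *Gli3* (chr13:15463235-15730026, plus strand) had 322 and 424 counts in WT against 70 and 44 in *Patz1* KO. The level went from 24.1 ± 3.57 CPM to 2.76 ± 0.187 CPM (SD, n = 2), which was 8.70-fold lower, a log2 fold change of -3.12 (SE 0.18, 95% CI -3.49 to -2.75, adjusted p = 2.41e-10). It was the largest change among the 8 genes, although its interval overlaps that of *Shh*, and 1.17% of all genes tested had a larger absolute log2 fold change. Leaving out each library gave values from -3.26 to -2.96.

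*Gli2* (chr1:118834132-119053619, minus strand) was the least abundant, with 54 and 61 counts in WT against 32 and 22 in *Patz1* KO. Its level was 3.73 ± 0.149 CPM in WT and 1.32 ± 0.00594 CPM in *Patz1* KO (SD, n = 2), for a log2 fold change of -1.50 (SE 0.29, 95% CI -2.11 to -0.89, adjusted p = 0.000363). The groups did not overlap, but with so few reads the error was the widest of the 8 genes. *Gli1* (chr10:127329882-127341974, minus strand), the *Gli* gene most directly induced by the pathway, had 132 and 148 counts in WT against 123 and 107 in *Patz1* KO. It went from 9.09 ± 0.316 CPM to 5.73 ± 0.923 CPM (SD, n = 2) and fell by 0.68 on the log2 scale (SE 0.19, 95% CI -1.08 to -0.28, adjusted p = 0.00672). The fall in *Gli1* was the smallest among the called genes and was not called without WT replicate 2 (adjusted p = 0.0618). *Arhgap9*, which shares 62 exon bases with *Gli1* on the other strand, had at most 2 counts in any library. Also on the other strand, *Gm47200* shares 265 exon bases with *Gli1*, and *Gm6556* shares 188 with *Gli3*. Neither is a row of the count files.

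As the falls were unequal, the composition of the *Gli* family differed between the groups. On the scale of CPM per kb of exon, the sum of the 3 genes was 4.56 and 5.20 in WT and 1.51 and 1.74 in *Patz1* KO. *Gli3* made up 49.5% and 53.4% of this sum in WT and 19.95% and 15.7% in *Patz1* KO. *Gli1* made up 38.9% and 35.8% in WT and 67.3% and 73.3% in *Patz1* KO, so the order of *Gli1* and *Gli3* was exchanged. The share of *Gli2* was between 10.7% and 12.7% in all 4 libraries. These are shares of RNA and say nothing of the activator and repressor forms of the proteins.

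**Figure D3:**
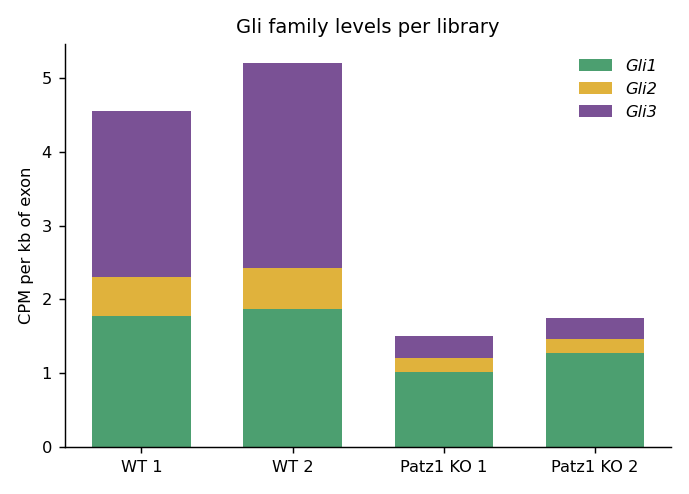
Stacked levels of *Gli1*, *Gli2* and *Gli3* in CPM per kb of exon, with 1 bar per library starting at 0. The WT bars reach 4.56 and 5.20 and are topped by a large *Gli3* part, and the Patz1 KO bars reach 1.51 and 1.74 and consist mostly of *Gli1*.

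**Figure D4:**
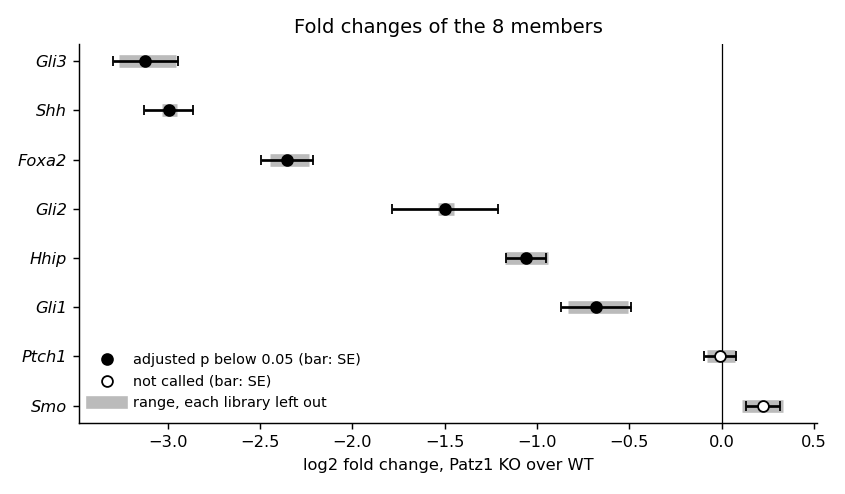
Log2 fold change of each of the 8 genes, Patz1 KO over WT, with bars for the SE (filled points were called at an adjusted p below 0.05) and gray bands for the range with any 1 library left out. The bands of *Gli3*, *Shh* and *Foxa2* lie below -2, and that of *Ptch1* spans 0.

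Compared per exon length, the 8 genes also changed their order. In WT, *Smo* was the highest at 22.7 ± 0.834 CPM per kb, followed by *Shh* at 13.5 ± 0.505, *Ptch1* at 12.6 ± 0.0311, *Foxa2* at 11.9 ± 0.0901, *Hhip* at 7.21 ± 0.684, *Gli3* at 2.52 ± 0.372, *Gli1* at 1.82 ± 0.0632 and *Gli2* at 0.543 ± 0.0217 (SD, n = 2). In *Patz1* KO, *Smo* at 26.4 ± 2.82 and *Ptch1* at 12.5 ± 0.927 CPM per kb came first. *Hhip* at 3.47 ± 0.403, *Foxa2* at 2.35 ± 0.240, *Shh* at 1.69 ± 0.0244 and *Gli1* at 1.15 ± 0.185 CPM per kb followed, with *Gli3* at 0.287 ± 0.0195 and *Gli2* at 0.192 ± 0.000865 last. No neighbours in either order had ranges that overlapped, which with 2 libraries is a weak separation. The transducer *Smo* thus stayed at the top, *Ptch1* went from place 3 to place 2, and *Shh* went from place 2 to place 5. In WT, however, *Shh* was only 1.07 times *Ptch1*, and *Ptch1* only 1.06 times *Foxa2*. The order of such close levels depends on the exon lengths used, and the annotation used for counting is not given.

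Genes that act between SMO and the GLI factors changed little. Of 22 tested genes of intracellular transduction, 1 was higher and 5 were lower, a share of 27.3% that is below the 47.9% of all genes tested. *Prkaca*, a catalytic subunit of protein kinase A, rose by 0.33, and *Gsk3b*, a kinase that marks GLI proteins for processing, fell by 0.36. *Cul3*, part of the ubiquitin ligase that degrades GLI proteins, fell by 0.30. The inhibitor *Sufu*, which holds GLI proteins in the cytoplasm, had a log2 fold change of -0.27 (adjusted p = 0.155), and *Kif7*, the kinesin that places them at the tip of the cilium, one of -0.30 (adjusted p = 0.0817). Exons of *Kif7* overlap those of *Ticrr* and *9330171B17Rik*. This list depended on single libraries. It held 0 called genes by edgeR without WT replicate 1 (6 at an unadjusted p below 0.05), 0 without WT replicate 2 (3 unadjusted) and 11 without *Patz1* KO replicate 2, and DESeq2's Wald test called 3.

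Genes that build and supply the primary cilium, in which the signal passes, were split. Of 29 tested, 7 were higher and 6 lower (44.8%, close to the 47.9% of all genes tested), with a median of -0.0020. *Bbs2*, of the complex that moves membrane proteins in the cilium, rose by 0.71, *Ofd1*, a protein of the base of the cilium, rose by 0.70, and *Dync2h1*, the motor of return transport, fell by 0.62. The count was 7 without WT replicate 1 or without WT replicate 2, and 6 by DESeq2's Wald test. Taking ligand release, receptors and transduction as 1 group, 19 of 37 other pathway genes were called (51.4%). Of these, 5 were higher and 14 lower, beside 24.1% and 23.8% of all genes tested. Of the 37, 6 changed by at least 1 on the log2 scale, the least of them *Hhat* at -1.01. Of all genes tested, 13.5% had a larger absolute log2 fold change than *Hhat*.

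Progenitor factors that Hedgehog signalling induces did not follow *Shh*. Of 6 tested, 4 were higher and 0 lower, beside 24.1% and 23.8% of all genes tested, with a median of 0.84. *Nkx6-2*, a homeodomain gene of ventral progenitors, rose from 112 and 93 WT counts to 1234 and 711 without *Patz1*, a log2 fold change of 2.81 (SE 0.14, adjusted p = 8.58e-11). *Nkx2-2*, which marks the progenitor domain beside the floor plate, rose from 110 and 104 counts to 391 and 271, by 1.21 (SE 0.15, adjusted p = 4.87e-06), and *Nkx6-1* rose by 0.47 (SE 0.11, adjusted p = 0.00218). *Nkx2-9*, given above, is the fourth. *Olig2*, the factor of MN progenitors, had 949 and 1007 counts in WT against 1338 and 974 in *Patz1* KO, for a log2 fold change of -0.17 (SE 0.093, adjusted p = 0.148). Exons of *Nkx6-2* overlap those of *Inpp5a*, and exons of *Nkx2-2* those of *Nkx2-2os*, on the other strand.

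Factors that Hedgehog signalling represses were mostly too low to test. *Pax7*, a gene of dorsal progenitors, had at most 2 counts in any library, and *Pax3*, *Dbx1*, *Dbx2* and *Msx1* were not tested either. Of the 4 tested, 2 were higher and 2 lower, beside 24.1% and 23.8% of all genes tested. *Pax6*, which is high in intermediate progenitors, went from 353 and 372 counts to 278 and 190 and fell by 1.05 (SE 0.13, adjusted p = 2.93e-06), whereas *Irx3* and *Irx5*, Iroquois factors of more dorsal domains, rose by 0.70 and 0.54.

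**Figure D5:**
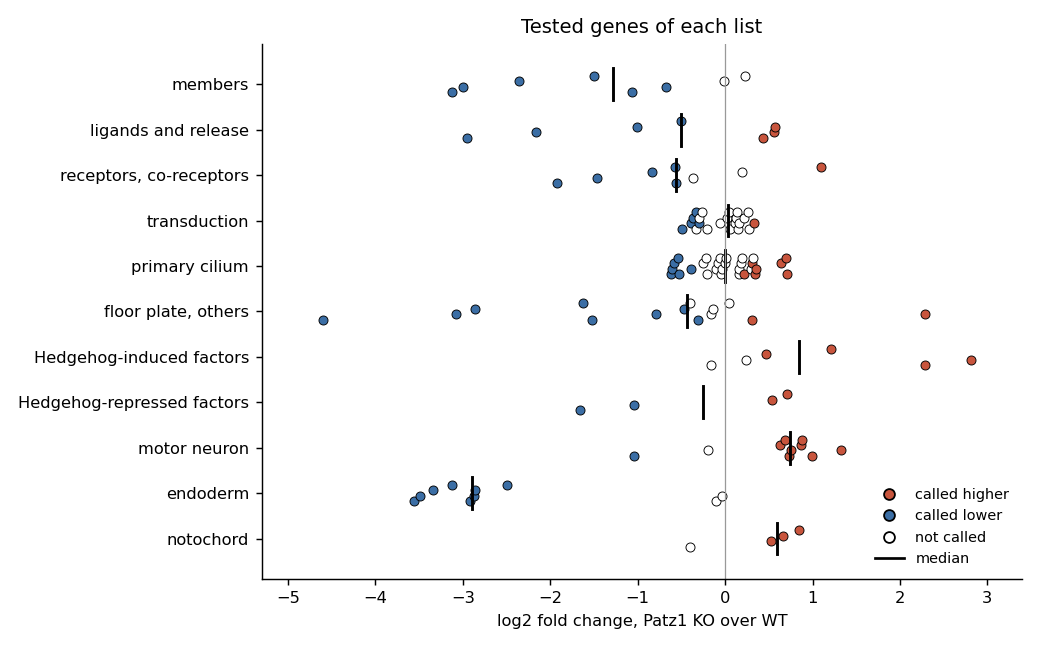
Log2 fold change, Patz1 KO over WT, of each tested gene of the lists, with called genes in red (higher) or blue (lower), other genes in white and a black bar at the median of the list. Transduction and cilium genes lie around 0. The 8 genes and the lists of ligands and release, floor plate and endoderm extend below -2.5. The Hedgehog-induced factors and motor neuron genes lie mostly above 0.

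Markers of other cell types that express *Foxa2* or *Shh* were measured beside these results. Of 15 endoderm genes, 10 were tested, and 8 were lower and 0 higher, beside 23.8% and 24.1% of all genes tested. The median was -2.89. Their summed level was 57.4 and 68.2 CPM in WT and 10.2 and 10.5 CPM in *Patz1* KO, and no gene of the list was at 0 in all libraries. *Dab2*, an endocytic adaptor of extraembryonic endoderm, went from 241 and 300 counts to 32 and 38 and fell by 3.34, and *Cubn*, a receptor of the same tissue, fell by 2.92 (-3.60 without *Patz1* KO replicate 1). *Foxa1* is in this list and in that of the floor plate. Endoderm factors of the list were chosen after their values were seen. *Sox17* had 38 and 48 counts in WT against 12 and 8 in *Patz1* KO. *Gata4* had 74 and 80 against 11 and 7, and *Gata6* had 75 and 97 against 7 and 12. *Sox7* had 31 and 26 against 52 and 20 and was not called (log2 fold change -0.11, adjusted p = 0.826). The marker *Afp* was not called either (log2 fold change -0.036). The called endoderm markers thus moved in the same direction as *Foxa2* and *Shh*, and their part in the falls of these genes was not tested. Where every library had to reach 10 counts, 5 of the list were tested and 3 called.

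Notochord markers were near 0 or differed in direction. *T* (brachyury), which defines the notochord, had 1 count in 1 *Patz1* KO library and none elsewhere, and *Noto* had 1 count in 1 WT library. Of 4 tested genes of this list 3 were higher, beside 24.1% of all genes tested. These 3 are also expressed outside the notochord. *Foxj1*, a regulator of motile cilia that is also in the floor plate list and was chosen after its values were seen, had 167 and 167 counts in WT against 206 and 133 in *Patz1* KO. Both of its *Patz1* KO libraries were lower in CPM, with a log2 fold change of -0.40 (adjusted p = 0.0516), and it was called lower in 6 of the 14 alternative settings. *Sox9* rose by 0.53, and the BMP inhibitors *Chrd* and *Nog* by 0.66 and 0.84. The summed level of the list was 73.7 and 69.2 CPM in WT and 96.0 and 97.8 CPM in *Patz1* KO.

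The genes with a pattern most like that of *Shh* over the 4 libraries were found by the Euclidean distance of log2 CPM, centred on each gene, among 11910 genes with a mean of at least 50 counts. These were *Lhfpl2* at a distance of 0.109, *Grb10* at 0.136, *Lamb1* at 0.143, *Dsp* at 0.184 and *Nid2* at 0.189. For *Gli3* they were *Dsp* at 0.111, *Lamb1* at 0.180, *Frem2* at 0.205, *Foxf1* at 0.209 and *Grb10* at 0.232. *Dsp*, *Lamb1* and *Grb10* are in both lists. *Grb10*, an imprinted gene for a receptor adaptor, was the most abundant of them, with 5439 and 5764 counts in WT against 1163 and 706 in *Patz1* KO. The laminin chain gene *Lamb1* had 1622 and 2045 counts against 395 and 255. With 4 libraries, such a likeness rests mainly on the size of the difference between the groups.

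Neighbouring genes did not share the direction of the 8 genes in a uniform way. Of 59 tested genes with a start within 500 kb of one of the 8 starts, 19 were higher, 12 lower and 28 not called, beside 24.1% higher and 23.8% lower over all genes tested. Near *Shh*, 3 of 4 tested genes were lower, and near *Foxa2* 1 of 2. Near *Smo*, 9 of 11 were higher and 0 lower. Near *Gli1*, in a gene-dense region, 8 of 32 were higher and 4 lower, near *Gli2* 2 of 4 were higher, and near *Hhip* 2 of 3 and near *Ptch1* 2 of 3 were lower. No gene near *Gli3* was tested.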

How the data were processed

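RNA-seq counts were analysed from 4 libraries of cervical MNs, 2 WT and 2 *Patz1* KO, grouped by the genotype in the sample labels. Per the labels, the processing notes name TopHat2 2.1.1, Bowtie2 2.3.1, featureCounts 1.6.2 and DESeq2. The study's methods name mm10 and Bowtie 2, and the role of each tool, the annotation and the strand setting are not given in the sources used here. The authors deposited raw read counts per gene symbol, and every line names a gene.

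Counts were scaled with TMM, filtered with filterByExpr (minimum count 10) and tested with edgeR 4.0.16 (quasi-likelihood test, limma 3.58.1, R 4.3.3), with Benjamini-Hochberg adjustment over 14269 genes. SE was taken from the log2 fold change and the square root of F. At 3 counts, the level is 0.124 to 0.201 CPM depending on the library. Positions and exon lengths came from GENCODE M21 on GRCm38, the assembly of mm10. Promoters were searched and figures drawn in Python 3.11.15 with matplotlib 3.10.9. The edgeR and DESeq2 fits were tested on simulated data before use.

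The 8 genes and the 10 gene lists were chosen with earlier results of these data known, and no list was tested as a set. Some genes counted in the lists are not reported here by themselves. Named by rule were the 8 genes, *Patz1*, genes picked by role, the 3 of lowest p from each other list, and the 5 genes most like *Shh* and *Gli3*. Alternatives were other scalings (size factors of DESeq2, no scaling beyond library size, TMM with the 20 most counted genes set aside), filters, DESeq2 1.42.0, robust estimation, a replicate block, stricter thresholds and leaving out each library. Same-numbered libraries did not deviate together (r = 0.030 between the replicate differences of the groups, across genes). Replicates differed by more than sampling noise (chi-square per gene 10.5 in WT and 23.4 in *Patz1* KO).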

Additional observations from a re-analysis of the deposited data

How the results depend on the processing

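*Shh*, *Foxa2* and *Gli3* were called lower in all 14 alternatives, and 6 or 7 of the 8 genes were called in 12 of them. The exceptions were 5 without WT replicate 2, where *Gli1* was not called, and 3 where a change of at least 1 on the log2 scale was tested. The seventh gene was *Smo*. *Ptch1* was never called, and its log2 fold change turned from -0.0083 to 8.93e-05 with TMM without the 20 most counted genes, 0.0139 with no filter, 0.0023 with DESeq2's Wald test and 0.0708 without *Patz1* KO replicate 2. All lay inside its SE, as did the lowest value of -0.083 with a library left out.

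Genome-wide, 718 genes were called where a change of at least 1 on the log2 scale was tested, and 4521 to 7816 without 1 library, with 4521 without WT replicate 2 and 4927 without WT replicate 1. With that minimum, 2 genes were called in the list of ligand release, 2 of receptors, 5 of the floor plate, 2 of Hedgehog-induced factors, 1 of motor neurons, and 0 of transduction, cilium, notochord and Hedgehog-repressed factors (in each of these also 0 at an unadjusted p below 0.05). Transduction had 3 called genes with DESeq2 and 3 at an adjusted p below 0.01, and 0 to 11 when each library was left out. Cilium genes had 6 and 6, and 7 to 16 with a library left out. Endoderm genes had 8 called with the minimum change of 1, with DESeq2 and at an adjusted p below 0.01, and 3 of the 5 that had at least 10 counts in every library. In a fit without 1 library the lone library is assumed to vary like the other group, and few degrees of freedom remain.

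With the replicate number as a replicate block, 7361 genes were called genome-wide and 7 of the 8 genes, *Smo* included (log2 fold change 0.22, adjusted p = 0.0374). The labels tie same-numbered libraries only by this number. The differences between replicates were not correlated between the groups, which cannot show whether same-numbered libraries were handled together. Scaling moved the median of all genes by at most 0.028 on the log2 scale (fell by 0.028 with library size alone). Depth limits *Gli2*, *Ihh* and the genes that were not tested.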
